A study of Danio rerio with 24 samples.

Results

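The genes described here are the Bmp, activin and Tgf-beta pathway genes measured in sorted zebrafish cells. They were chosen by name alone: every gene whose symbol begins with bmp, smad, inhb, tgfb, acvr, gdf, chrd, fst, ltbp or smurf, begins with nog and a digit, or is id1, id2, id3 or id4. This gave 46 of the 8793 genes that the array annotation names with 1 symbol. By role they were 16 ligands, 8 extracellular antagonists or binding proteins, 8 receptors, 5 receptor-activated Smads, 4 regulators of Smads, 3 Id target genes and 2 genes that match the rule by name only.

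Bmps, activins and Tgf-betas are secreted dimers that bring type II and type I receptor kinases together on a target cell. The type I receptor then phosphorylates a receptor-activated Smad, which enters the nucleus and changes transcription. Smad1 and Smad5 carry signals of Bmp and of some Gdf ligands, and Smad2 and Smad3 those of activin, Nodal and Tgf-beta. Outside the cell, chordin, noggin and follistatin trap ligands. Inside it, Smad6 and Smad7 and the ubiquitin ligases Smurf1 and Smurf2 hold the response down, and the id genes are among its best known targets. In zebrafish, Bmp from the lateral mesoderm promotes liver specification, and Bmp and Tgf-beta signals are exchanged between the gut epithelium and the mesenchyme around it.

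Cells came from embryos and larvae of Tg(XlEef1a1:GFP)s854, a line whose transgene labels the digestive organs made by endoderm, aged 2, 3, 4 and 6 days post fertilization (dpf). They were sorted by GFP into 2 fractions, GFP+ and GFP-, termed gates, and amplified RNA from each was hybridized to an Affymetrix zebrafish array. The 8 groups were GFP+ and GFP- cells at each of the 4 ages, with 3 arrays each and 24 arrays in all. All animals were homozygous for the transgene and were raised in 1-phenyl-2-thiourea (PTU), given from 1 dpf against pigment, so that the GFP- cells carry the same transgene and treatment. The GFP+ gate is defined by the activity of that transgene alone and mixes several organs. The GFP- gate is the remaining cells of the animal, including mesenchyme, nervous system, skin and blood. Digestive markers also rose in it with age, as given below. In such bulk samples, fewer cells of a type and less RNA per cell cannot be told apart.

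The deposited value is a score for each probe set, scaled on every array to a median of 0 and to 1 standard deviation (SD). A score of 0 is thus the middle of the array, and all differences below are in units of 1 array SD. The log base is not given in the sources used here, so no fold changes were computed. Scores of different genes were not compared, since probe sets differ in brightness. Differences were tested with limma over 15502 probe sets, and a gene was called at a Benjamini-Hochberg adjusted p under 0.05. Intervals after ± are standard errors (SE) of a difference, or SDs over 3 arrays where a group mean is given. With 3 arrays in a group, their number limits the precision, and nothing in the sources says that replicates came from separate clutches, so the p-values may measure technical spread only.

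Over the 4 ages, most genes of the marker lists differed between the gates in the direction of the gate labels. In GFP+ cells all 15 digestive markers were higher over the 4 ages. At 2, 3, 4 and 6 dpf, 12, 14, 15 and 8 of them were called higher, with median differences of 1.8, 1.81, 1.21 and 0.65. Their mean score ran from 1.42 to 2.73 on GFP+ arrays, against -0.15 to 2.08 on GFP- arrays, so these ranges overlapped. Within the GFP- gate the list mean was 1.72 to 1.92 at 6 dpf, against -0.15 to -0.02 at 2 dpf, and the arrays at 4 dpf spread between 1.13 and 2.08. All 11 neuronal markers measured were lower in GFP+ cells, with list means of -0.05 to 0.54 on GFP+ arrays, against 1.00 to 2.21 on GFP- arrays. Of the connective tissue markers, 7 of 9 were lower and 1 higher, and of the epidermal markers 6 of 6 were lower. Of the gut wall mesenchyme markers 2 of 3 were lower, of the endothelial 2 of 4, of the leukocyte markers 3 of 5 with 1 higher, and of the skeletal muscle markers 3 of 4. The part of these cell types in the differences below was not tested. The score of the 3' minus the 5' GAPDH control was 0.75, 0.40 and 0.53 in GFP+ cells at 2 dpf, against 0.24, 0.27 and 0.27 in GFP- cells, and -0.13, -0.10 and 0.27 in GFP+ cells at 6 dpf, against 0.85, 0.24 and 0.35 in GFP- cells. The part of this gap in the results was not tested. Replicate 3 of the GFP+ cells at 6 dpf correlated least with its group, at a mean of 0.897, against at least 0.925 for every other array.

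Over the 4 ages together, 22 of the 46 genes differed between the gates, 8 higher and 14 lower in GFP+ cells. That share, 47.8%, stood beside 58.4% of all probe sets, of which 37.7% were higher and 20.7% lower. The median difference was -0.06 over the pathway genes and 0.08 over all probe sets. After quantile normalization of the arrays, 24 of the 46 were called, 4 higher and 20 lower. Of all 15502 probe sets 7627 were called in that fit, 4067 higher and 3560 lower, so the split between directions depends on the scaling. Among the 19 pathway genes with a mean score of 0 or more, 2 were higher and 12 lower, while 37.7% of all probe sets at that level were higher and 30.4% lower. The remaining 27 had mean scores under 0, and 21 of these were under 0 in all 8 groups.

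**Figure D1:**
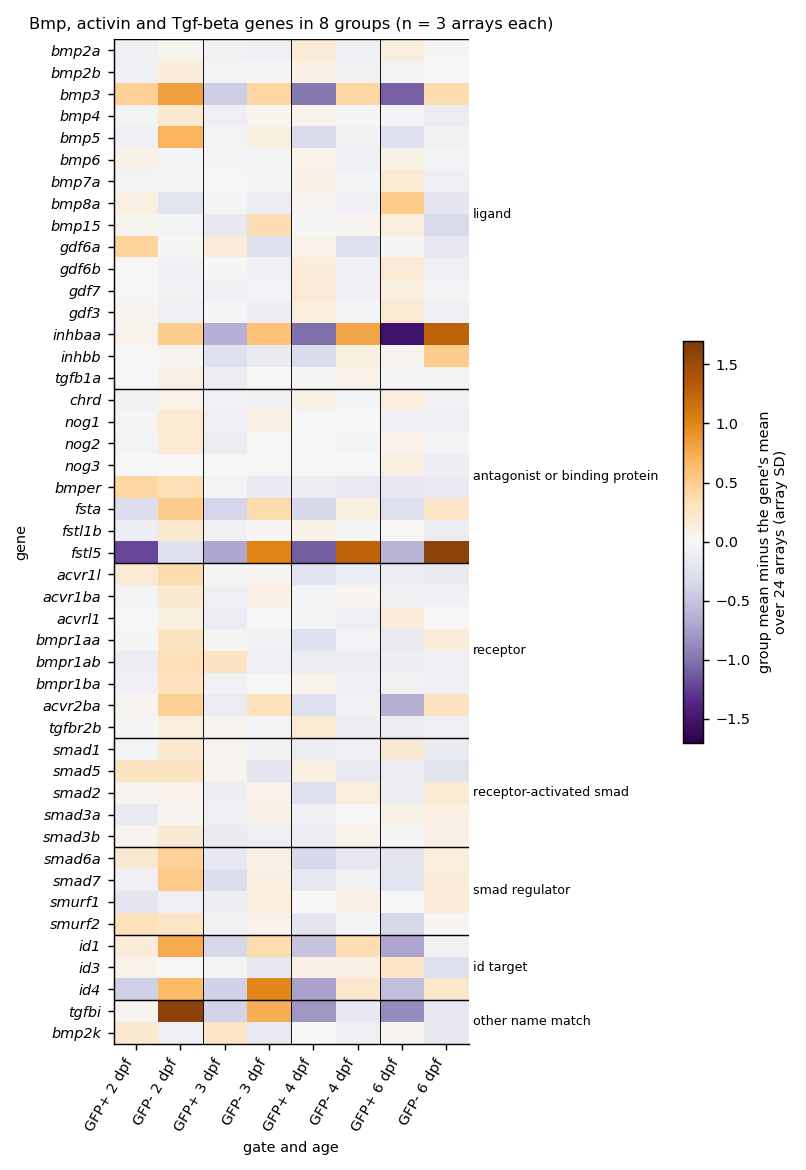
Group means of the 46 genes in the 8 groups (columns, 3 arrays each), shown as the difference from each gene's own mean over the 24 arrays, in array SD, with genes ordered by role. Few rows carry strong colour: inhbaa, bmp3, fstl5, id1, id4 and tgfbi, all lower in GFP+ cells.

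Age by age, 9 genes were called at 2 dpf (1 higher, 8 lower), beside 17.0% of all probe sets, of which 9.66% were higher and 7.36% lower. At 3 dpf 9 were called (2 higher, 7 lower), beside 26.5% (14.5% higher, 12.0% lower), and at 4 dpf 9 (2 higher, 7 lower), beside 30.3% (19.0% higher, 11.3% lower). At 6 dpf 18 were called (7 higher, 11 lower), beside 38.2% (23.2% higher, 14.9% lower). Under quantile normalization the splits were 0 higher and 8 lower, 1 and 9, 0 and 8, and 3 and 9 at these ages. Over all 15502 probe sets they were 1271 higher and 1252 lower, 2073 and 1946, 2316 and 2032, and 2509 and 2355. Lower at all 4 ages were fsta, fstl5, id1 and id4, and 0 genes were higher at all 4. Another 17 genes were called in none of the comparisons. The shares of all probe sets lower at all 4 ages, higher at all 4 or called in none were not computed. Nor was the share of all probe sets whose groups of 3 arrays do not overlap, so gates or ages said below to be apart are description only.

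**Figure D2:**
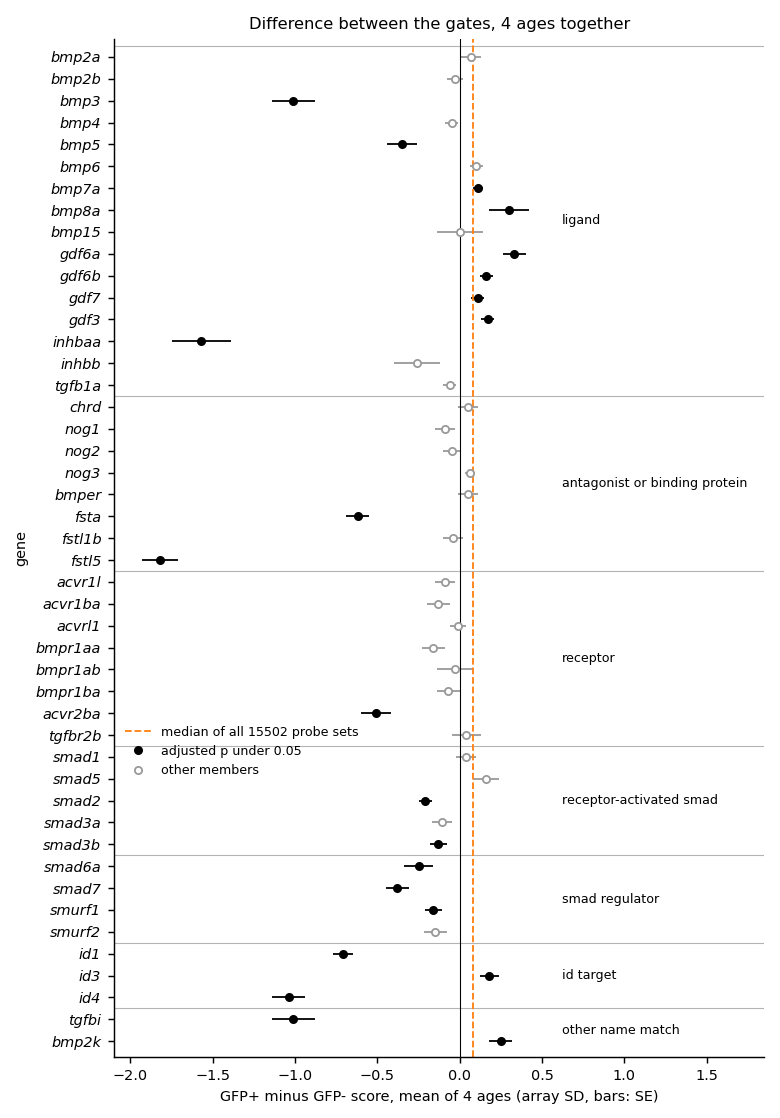
GFP+ minus GFP- score over the 4 ages for each of the 46 genes, with bars of 1 SE, 12 arrays per gate. Filled points were called, open points were not, and the dashed line is the median of all 15502 probe sets at 0.08. The largest differences are negative, led by fstl5 at -1.82 and inhbaa at -1.57.

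Among the 16 ligand genes, 3 were lower in GFP+ cells over the 4 ages (inhbaa, bmp3 and bmp5) and 6 were higher (gdf6a, bmp8a, gdf3, gdf6b, bmp7a and gdf7). The other 7 were not called: bmp2a, bmp2b, bmp4, bmp6, bmp15, inhbb and tgfb1a, with differences between -0.26 for inhbb and 0.10 for bmp6. Without GFP+ 6 dpf replicate 3, inhbb was called lower over the 4 ages (-0.36, limma adjusted p 0.0103) and at 6 dpf (-0.86, 0.00915). Array weights called it lower in both as well (-0.34, 0.00269, and -0.89, 0.000131). Quantile normalization called bmp4 (-0.10, 0.0364) and tgfb1a (-0.13, 0.00404) lower over the 4 ages. The widest difference was that of inhbaa, which encodes the beta A subunit of activin. At 2 dpf its scores were 1.67, 1.35 and 0.72 in GFP+ cells, against 1.78, 1.37 and 1.92 in GFP- cells, and the gates overlapped. At 3 dpf they were 0.49, -0.14 and 1.29 in GFP+ cells, against 1.73, 1.81 and 1.80 in GFP- cells. From that age on, every GFP+ array lay below every GFP- array. At 4 dpf the GFP+ arrays gave -0.08, 0.83 and -0.25, and the GFP- arrays 1.87, 2.52 and 1.56. At 6 dpf the GFP+ arrays gave -0.55, 0.24 and -0.68, and the GFP- arrays 2.82, 2.04 and 2.52. The difference was -0.44 ± 0.36, -1.24 ± 0.36, -1.81 ± 0.36 and -2.79 ± 0.36 at 2, 3, 4 and 6 dpf, with limma adjusted p of 0.449, 0.0129, 0.00056 and 5.01e-06. The call at 3 dpf was lost without GFP+ 3 dpf replicate 2 (-0.89, adjusted p 0.0918). A second, dim probe set for inhbaa, with a mean score of -0.44, differed by only -0.07 over the 4 ages (adjusted p 0.162), and with both averaged the difference of -1.57 became -0.82 and was still called.

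The ligand bmp3, known in mammals as a Bmp that opposes other Bmps, parted from the GFP- gate over the same ages. Its GFP+ scores were 1.07, 1.71 and 1.1 (2 dpf), -0.03, 0.29 and 0.90 (3 dpf), -0.43, 0.28 and -0.33 (4 dpf), and -0.27, -0.20 and -0.34 (6 dpf). Its GFP- scores were 1.46, 1.38 and 2.12 (2 dpf), 1.17, 1.32 and 1.24 (3 dpf), 0.71, 1.76 and 1.23 (4 dpf), and 0.95, 1.41 and 1.18 (6 dpf). The gates overlapped at 2 dpf only. The difference was -0.36 ± 0.27 at 2 dpf, which was not called (limma adjusted p 0.411), and -1.39 ± 0.27 and -1.45 ± 0.27 at 4 and 6 dpf (adjusted p 0.00046 and 0.000248). At 3 dpf it was -0.86 ± 0.27 (adjusted p 0.0212), and that call ended without any 1 of 4 arrays, namely GFP+ replicates 1 (-0.65, adjusted p 0.127) and 2 (-0.81, 0.0648) and GFP- replicates 2 (-0.82, 0.0572) and 3 (-0.86, 0.0528).

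bmp5 differed mainly at 2 dpf. Its scores there were -0.29, -0.34 and -0.11 in GFP+ cells, against 0.43, 0.28 and 0.84 in GFP- cells, and the gates did not overlap. The difference was -0.77 ± 0.17 (limma adjusted p 0.00384). At 3, 4 and 6 dpf it was -0.17, -0.28 and -0.18 and was not called. Over the 4 ages bmp5 was -0.35 ± 0.09 (adjusted p 0.00211), with GFP+ arrays from -0.63 to -0.04 (median -0.39) and GFP- arrays from -0.54 to 0.84 (median -0.09).

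gdf6a, a growth factor of the Bmp family that patterns the dorsal eye in zebrafish, was the ligand with the largest higher score in GFP+ cells. Its GFP+ arrays gave -0.10, 0.25 and -0.11 (2 dpf) and -0.29, -0.43 and -0.11 (3 dpf), and its GFP- arrays -0.44, -0.59 and -0.22 (2 dpf) and -0.74, -0.62 and -0.70 (3 dpf). At both ages the gates did not overlap. At 4 dpf it was -0.60, -0.18 and -0.33 in GFP+ cells, against -0.74, -0.64 and -0.68 in GFP- cells, and at 6 dpf -0.58, -0.61 and -0.16 in GFP+ cells, against -0.56, -0.68 and -0.60 in GFP- cells. Over the 4 ages the difference was 0.33 ± 0.07 (limma adjusted p 0.000308). Single ages held less firmly: the call at 2 dpf (0.43 ± 0.13, adjusted p 0.031) was lost with the replicates as blocks (adjusted p 0.0568), under quantile normalization (0.0529) and without 3 single arrays, with adjusted p up to 0.162, and that at 3 dpf (0.41 ± 0.13, adjusted p 0.0269) ended without 4 single arrays, with adjusted p up to 0.125.

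bmp8a scored 0.42, 0.62 and 1.1 in GFP+ cells at 6 dpf, against 0.13, -0.23 and 0.12 in GFP- cells, a difference of 0.71 ± 0.24 (limma adjusted p 0.0257). All 3 GFP+ arrays lay above the GFP- arrays there, while the gates overlapped at the other ages. The highest of these is the array that correlated least with its group, and without it the difference was 0.51 (adjusted p 0.121). Over the 4 ages the difference was 0.30 ± 0.12 (adjusted p 0.0363), which ended without 12 of the 24 single arrays, under quantile normalization (adjusted p 0.0538) and with the replicates as blocks (adjusted p 0.0513). The other probe sets of bmp8a, with mean scores of -0.52 and -0.56, were both called higher over the 4 ages, by 0.13 and 0.11. The median difference over all probe sets with a mean score under 0 was 0.09, and 37.7% of them were called higher.

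The remaining higher ligands were at the dim end of the arrays, as was gdf6a, with a mean score of -0.44. gdf3, a Vg1-type factor needed for Nodal signals in the early embryo, ran from -0.72 to -0.34 on the 12 GFP+ arrays (median -0.61), against -0.81 to -0.61 on the GFP- arrays (median -0.75), and differed by 0.17 ± 0.04 (limma adjusted p 0.00114). gdf6b differed by 0.16 ± 0.04 (adjusted p 0.0016), bmp7a by 0.11 ± 0.03 (0.0136) and gdf7 by 0.11 ± 0.04 (0.0232). These 4 genes were under 0 in every group. Over all 7442 probe sets with a mean score under 0, 37.7% were called higher and 10.2% lower over the 4 ages, and the median difference was 0.09, or 0.05, 0.02, 0.12 and 0.15 at 2, 3, 4 and 6 dpf. The lower quartile of the arrays at 4 and 6 dpf lay between -0.42 and -0.38 on GFP+ arrays, against between -0.55 and -0.46 on GFP- arrays, and its part in the differences of these genes was not tested. Quantile normalization left bmp7a at 0.04 (adjusted p 0.358) and gdf7 at 0.06 (0.205), and the replicate block gave 0.0579 and 0.0557 for these genes, so that neither was called. At single ages, the higher scores of gdf7 and gdf6b at 4 dpf (0.25 and 0.23) were lost with the block too (adjusted p 0.0629 and 0.079) and under quantile normalization, which gave 0.17 (0.116) and 0.12 (0.214). At 6 dpf gdf3, gdf6b and bmp7a each differed by 0.27 and were called. After quantile normalization gdf3 and bmp7a each stood at 0.16 there and were not called (adjusted p 0.0907 and 0.063), and gdf3 was 0.19 (0.0513) without GFP+ 6 dpf replicate 3.

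**Figure D3:**
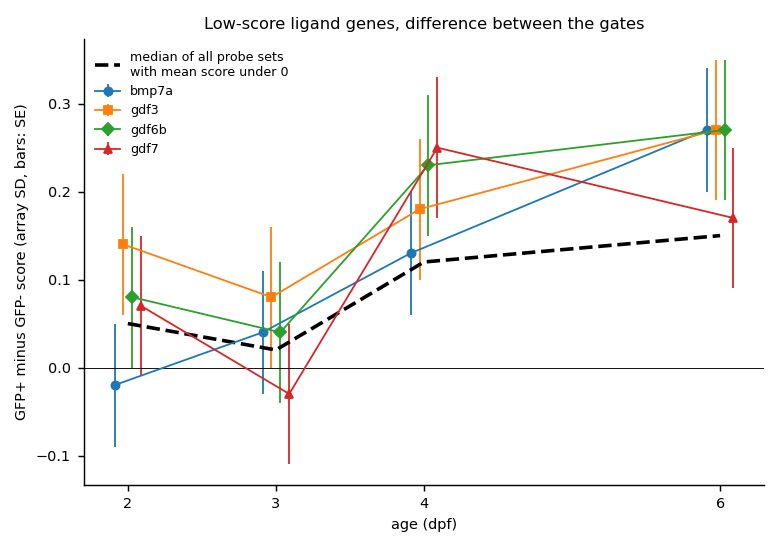
GFP+ minus GFP- score (array SD, bars of 1 SE) by age for bmp7a, gdf3, gdf6b and gdf7, whose means were under 0 in all 8 groups, with the median of all probe sets with a mean score under 0 as a dashed line. The dashed line itself lies at 0.12 and 0.15 at 4 and 6 dpf, and the 4 genes reach 0.17 to 0.27 at 6 dpf.

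Of the 8 extracellular antagonists and binding proteins, fstl5 and fsta were lower in GFP+ cells and 0 were higher. chrd, nog1, nog2, nog3, bmper and fstl1b, which bind Bmps or resemble proteins that do, were not called over the 4 ages, with differences between -0.09 and 0.06. nog3 alone of these was called at a single age in the main fit, at 0.21 ± 0.06 at 6 dpf (limma adjusted p 0.0153). That call was lost under quantile normalization (0.10, adjusted p 0.26) and with the replicate block (adjusted p 0.0693). chrd was called higher at 6 dpf without GFP+ 6 dpf replicate 3 (0.39, adjusted p 0.00504) and with array weights (0.36, 0.000871). Array weights also called fstl1b (-0.34, 0.024) and nog2 (-0.25, 0.0378) lower at 2 dpf and nog1 (-0.24, 0.0367) lower at 3 dpf. Quantile normalization called nog1 lower over the 4 ages (-0.14, 0.043). fstl5 encodes a secreted follistatin-like protein. Its GFP+ scores were 0.05, -0.38 and -0.13 (2 dpf), 0.26, 0.63 and 0.20 (3 dpf), -0.30, -0.04 and 0.22 (4 dpf), and 0.35, 0.56 and 0.47 (6 dpf). Its GFP- scores were 1.45, 0.64 and 0.39 (2 dpf), 2.02, 2.11 and 2.11 (3 dpf), 2.69, 2.40 and 1.88 (4 dpf), and 2.86, 2.52 and 2.63 (6 dpf). Every GFP+ array lay below every GFP- array of its age. The difference was -0.98, -1.72, -2.37 and -2.21 at 2, 3, 4 and 6 dpf (SE 0.22 each), and the highest of the limma adjusted p was 0.00383, at 2 dpf.

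fsta encodes follistatin, which binds activin and blocks it. Its GFP+ arrays gave 0.14, -0.03 and 0.06 (2 dpf), -0.23, 0.06 and 0.12 (3 dpf), 0.16, -0.17 and 0.04 (4 dpf), and -0.02, -0.10 and 0.39 (6 dpf). Its GFP- arrays gave 0.80, 0.66 and 1.1 (2 dpf), 0.83, 0.77 and 0.59 (3 dpf), 0.73, 0.27 and 0.37 (4 dpf), and 0.56, 0.74 and 0.49 (6 dpf). The gates did not overlap at any age, and the GFP+ arrays stayed near the array median throughout. The difference was -0.80, -0.75, -0.44 and -0.51 (SE 0.15 each), with limma adjusted p of 0.00067, 0.000658, 0.0272 and 0.0109. Its second probe set, with a mean score of -0.54, was not called over the 4 ages (0.13, adjusted p 0.0674), and with both averaged the difference over the ages was -0.25 in place of -0.62, while that at 4 dpf was -0.08 (adjusted p 0.472). The call at 4 dpf also ended without GFP- replicate 1 (-0.31, adjusted p 0.153), GFP+ replicate 2 (-0.35, 0.113) or GFP+ replicate 3 (-0.46, 0.0554), and that at 6 dpf without GFP+ replicate 2 (-0.41, 0.0535) or GFP- replicate 2 (-0.44, 0.0548).

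Of the 8 receptor genes, acvr2ba was called over the 4 ages and 7 were not: acvr1l, acvr1ba, acvrl1, bmpr1aa, bmpr1ab, bmpr1ba and tgfbr2b, between -0.16 and 0.04. Quantile normalization (-0.18, limma adjusted p 0.0204) and array weights (-0.13, 0.0463) did call acvr1ba lower over the 4 ages. Array weights also called tgfbr2b higher (0.13, 0.0344). acvr2ba encodes a type II receptor that binds activins and some Bmps. Its GFP+ scores were 0.99, 1.09 and 1.36 (2 dpf), 0.91, 1.13 and 0.94 (3 dpf), 0.88, 1.20 and 0.47 (4 dpf), and 0.63, 0.51 and 0.26 (6 dpf). Its GFP- scores were 1.59, 1.80 and 1.38 (2 dpf), 1.37, 1.61 and 1.32 (3 dpf), 0.89, 1.08 and 1.18 (4 dpf), and 1.84, 1.02 and 1.33 (6 dpf). The gates overlapped at 4 dpf only, and the gap was widest at 6 dpf, at -0.93 ± 0.19 (limma adjusted p 0.000606). At the earlier ages it was not called, but the ages called depended on the probe set and setting. Another probe set, with a mean score of 0.49, was called at 2 dpf (-0.42, adjusted p 0.0249) and not at 6 dpf (-0.27, 0.101). Averaged probe sets were called at 2 dpf (-0.30, 0.0293), 3 dpf (-0.29, 0.0247) and 6 dpf (-0.40, 0.00207). Quantile normalization also gave a call at 3 dpf (-0.51, 0.0458). Over the 4 ages the other probe sets of acvr2ba differed by -0.27 (called) and -0.02 (not called), against -0.51 ± 0.09 for the brightest. For the type I receptor bmpr1aa the probe sets also disagreed: the brightest was not called at -0.16 (adjusted p 0.0582), and the others were called lower at -0.40 and -0.32. For tgfbr2b, the type II receptor of Tgf-beta, the brightest stood at 0.04 (adjusted p 0.709) and the other was called higher at 0.27. With probe sets averaged all 3 were called over the 4 ages, at -0.27 for acvr2ba, -0.29 for bmpr1aa and 0.16 for tgfbr2b.

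Of the 5 receptor-activated Smads, smad2 and smad3b, which serve activin, Nodal and Tgf-beta, were lower in GFP+ cells. smad3a (-0.11) was not called, nor were smad1 (0.04) and smad5 (0.16), which serve Bmp. Quantile normalization (-0.15, limma adjusted p 0.0304) and array weights (-0.14, 0.0233) did call smad3a lower. smad2 scored 1.34, 1.32 and 1.25 in GFP+ cells at 2 dpf, against 1.21, 1.28 and 1.45 in GFP- cells, and 0.91, 1.14 and 0.94 in GFP+ cells at 4 dpf, against 1.36, 1.52 and 1.28 in GFP- cells. Its gates overlapped at 2 dpf and were apart at 4 dpf. The smad2 difference over the 4 ages was -0.21 ± 0.04 (limma adjusted p 0.000324), and its second probe set stood at 0.00 (adjusted p 0.957). Averaging both left -0.10 (adjusted p 0.0463), and -0.15 at 4 dpf, which was not called (0.214). smad3b ran from -0.42 to 0.02 on GFP+ arrays (median -0.26), against -0.30 to 0.18 on GFP- arrays (median -0.12), a difference of -0.13 ± 0.05 (adjusted p 0.0302) that was lost with the replicates as blocks (adjusted p 0.061), with array weights (-0.09, 0.0815) and without 7 of the 24 single arrays. With the block smad5 was called over the 4 ages (0.16, adjusted p 0.0433), as was its other probe set without it, at 0.21. The higher score of smad1 at 6 dpf, 0.34 ± 0.12 (adjusted p 0.0399), was not called with the block (adjusted p 0.0716), under quantile normalization (0.28, 0.105), or without replicate 1 or 2 of either gate (0.27 to 0.33, adjusted p 0.0889 to 0.137).

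Of the 4 Smad regulators, 3 were lower in GFP+ cells over the 4 ages. smad7, an inhibitory Smad that is itself induced by Tgf-beta and Bmp signals, differed by -0.38 ± 0.07 (limma adjusted p 0.000252). Its scores at 2 dpf were -0.23, 0.30 and 0.25 in GFP+ cells, against 0.73, 0.85 and 0.54 in GFP- cells, and over all ages the GFP+ arrays ran from -0.45 to 0.30 and the GFP- arrays from 0.07 to 0.85. Its differences at 2, 3, 4 and 6 dpf were -0.60, -0.40, -0.12 and -0.39. The call at 2 dpf (adjusted p 0.00746) was lost without GFP+ replicate 1 (-0.43, adjusted p 0.0602), and the difference at 3 dpf was not called (adjusted p 0.055), but was with the block (0.0455), with array weights (-0.45, 0.000588) and with only the arrays compared (0.0294). The difference at 6 dpf (adjusted p 0.0446) was not called under quantile normalization (-0.38, 0.0751) and without 11 single arrays, among them GFP+ 6 dpf replicate 3, without which it was -0.19 (adjusted p 0.275). smad6a, the inhibitory Smad more specific to Bmp signals, ran from -0.41 to 0.46 on GFP+ arrays (median 0.00), against -0.27 to 0.70 on GFP- arrays (median 0.16), a difference of -0.25 ± 0.09 (adjusted p 0.0227). The ubiquitin ligase smurf1 ran from 1.29 to 1.78 on GFP+ arrays (median 1.47), against 1.38 to 1.89 on GFP- arrays (median 1.67), a difference of -0.16 ± 0.05 (adjusted p 0.0166). smurf2 was not called over the 4 ages (-0.15, adjusted p 0.0602), but was called lower under quantile normalization (-0.18, 0.034). Its lower score at 6 dpf, -0.38 ± 0.13 (adjusted p 0.0315), was not called with the replicate block (adjusted p 0.0835), under quantile normalization (-0.33, 0.0654), without GFP+ 6 dpf replicate 3 (-0.20, 0.195) or without GFP- 6 dpf replicate 3 (-0.27, 0.16).

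The Id genes, which encode helix-loop-helix proteins that bind and disable transcription factors of that class, went in different directions. id1 and id4 were lower in GFP+ cells at every age, and id3 was higher over the 4 ages and, among single ages, at 6 dpf. id1 scored 1.11, 1.50 and 1.51 in GFP+ cells (2 dpf), 0.65, 0.95 and 0.98 (3 dpf), 0.87, 0.61 and 0.66 (4 dpf), and 0.66, 0.54 and 0.33 (6 dpf). In GFP- cells it scored 1.93, 1.93 and 2.07 (2 dpf), 1.60, 1.69 and 1.46 (3 dpf), 1.60, 1.48 and 1.62 (4 dpf), and 0.94, 1.33 and 1.21 (6 dpf). Every GFP+ array of id1 lay below every GFP- array of its age. The difference over the 4 ages was -0.71 ± 0.06 (limma adjusted p 1.16e-08), between -0.61 and -0.85 at single ages.

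For id4, the GFP+ arrays gave 1.13, 0.66 and 0.50 (2 dpf), 0.60, 0.79 and 0.94 (3 dpf), 0.77, 0.03 and 0.51 (4 dpf), and 0.76, 0.33 and 0.83 (6 dpf). The GFP- arrays gave 1.84, 1.88 and 1.77 (2 dpf), 2.32, 1.87 and 2.30 (3 dpf), 1.61, 0.99 and 1.56 (4 dpf), and 1.37, 1.44 and 1.36 (6 dpf). No GFP+ array reached the lowest GFP- array of its age, and the difference over the 4 ages was -1.04 ± 0.10 (limma adjusted p 2.85e-08). id3 scored 2.56, 2.58 and 2.32 in GFP+ cells at 2 dpf, against 2.29, 2.52 and 2.45 in GFP- cells, and 2.81, 2.68 and 2.53 in GFP+ cells at 6 dpf, against 2.03, 2.36 and 2.12 in GFP- cells. The gates of id3 overlapped at 2, 3 and 4 dpf and were apart at 6 dpf, where the difference was 0.50 ± 0.11 (adjusted p 0.0016). Over the 4 ages the id3 difference of 0.18 ± 0.06 (adjusted p 0.0123) was not called after quantile normalization (0.10, adjusted p 0.185). The neuronal list mean on the same arrays was 1.00 to 2.21 in the GFP- gate and at most 0.54 in the GFP+ gate, and its part in the id4 and fstl5 differences was not tested.

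**Figure D4:**
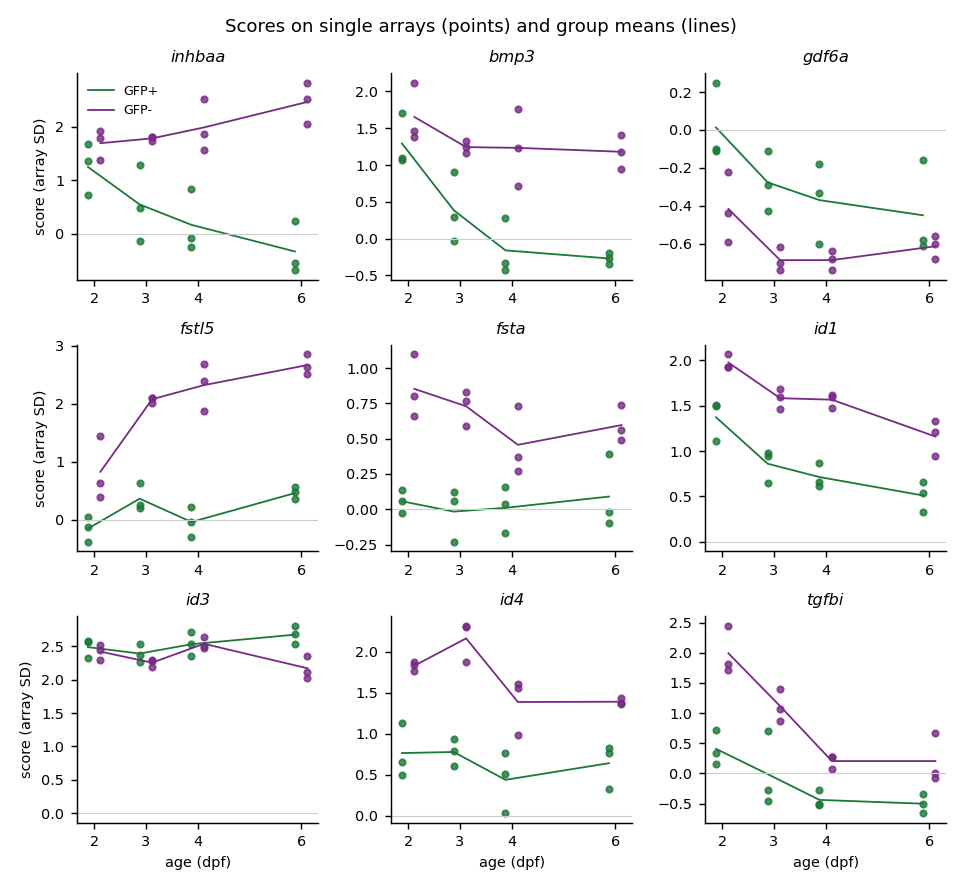
Scores (array SD) of 9 genes on each of the 24 arrays against age in dpf, with green points and lines of group means for GFP+ cells and purple for GFP- cells, each panel with its own vertical scale. The gates of inhbaa and bmp3 overlap at 2 dpf and are apart later, those of fstl5, fsta, id1, id4 and tgfbi are apart at every age, and those of id3 are apart at 6 dpf. The share of all probe sets with gates apart was not computed.

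The 2 genes that match by name only have their own roles. tgfbi encodes an extracellular matrix protein, named for its induction by TGF-beta in human cells. It scored 0.16, 0.72 and 0.34 in GFP+ cells (2 dpf), -0.28, -0.46 and 0.70 (3 dpf), -0.53, -0.28 and -0.51 (4 dpf), and -0.50, -0.66 and -0.35 (6 dpf). In GFP- cells it scored 1.81, 1.71 and 2.45 (2 dpf), 1.07, 0.87 and 1.40 (3 dpf), 0.07, 0.27 and 0.27 (4 dpf), and 0.01, 0.67 and -0.07 (6 dpf). The gates never overlapped, and the gap was -1.58, -1.13, -0.64 and -0.70 (SE 0.26 each) at 2, 3, 4 and 6 dpf. That at 4 dpf was not called (limma adjusted p 0.0639, and 0.0427 with the replicate block), and that at 6 dpf (adjusted p 0.0363) was lost without GFP- replicate 2 (-0.47, adjusted p 0.195), GFP+ replicate 1 (-0.70, 0.0693) or GFP+ replicate 2 (-0.63, 0.0996). The connective tissue list, to which tgfbi does not belong, had means of 0.79 to 0.86 on GFP+ arrays at 2 dpf, against 1.71 to 2.15 on GFP- arrays, and of 0.11 to 0.20 against 0.79 to 1.06 at 6 dpf. Its part in the tgfbi values was not tested. bmp2k, a kinase gene, ran from -0.46 to 0.19 on GFP+ arrays (median -0.20), against -0.64 to -0.17 on GFP- arrays (median -0.43), a difference of 0.25 ± 0.07 (adjusted p 0.00513).

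Between 6 and 2 dpf, 9 of the 46 genes changed in GFP+ cells, 1 higher and 8 lower at 6 dpf, beside 22.2% of all probe sets (9.17% higher, 13.0% lower). In GFP- cells 8 changed, 1 higher and 7 lower, beside 18.4% (8.77% higher, 9.64% lower). Marker lists differed between the same ages. At 6 dpf the epidermal list was lower for 4 of 6 genes in GFP+ cells (median -1.71) and for 1 of 6 in GFP- cells (-0.44), the skeletal muscle list for 4 of 4 in both gates (-1.33 in GFP+ cells, -1.08 in GFP- cells), and the connective tissue list for 5 of 9 in GFP+ cells (-0.53) and 7 of 9 in GFP- cells (-0.91). Of the 11 neuronal markers 1 was higher and 1 lower in GFP+ cells (median -0.07), against 5 higher and 3 lower in GFP- cells (0.54), and of the 15 digestive markers 8 were higher and 1 lower in GFP+ cells, against 12 higher and 0 lower in GFP- cells. The part of these lists in the pathway genes' changes was not tested. Lower in both gates were id1, tgfbi and bmper, the last a secreted protein that binds Bmps. For id1 the change was -0.86 ± 0.13 in GFP+ cells (limma adjusted p 4.52e-05) and -0.82 ± 0.13 in GFP- cells (0.000114), and for bmper -0.59 ± 0.13 (0.0016) and -0.48 ± 0.13 (0.00975). bmper scored -0.68, -0.64 and -0.60 in GFP+ cells at 6 dpf, against -0.28, 0.25 and -0.11 at 2 dpf. Its GFP- arrays gave -0.57, -0.66 and -0.61 at 6 dpf, against -0.19, -0.35 and 0.16 at 2 dpf, and without GFP- 2 dpf replicate 3 that change was -0.34 (adjusted p 0.0854). tgfbi changed by -0.91 ± 0.26 in GFP+ cells (0.013), which was lost without GFP+ replicate 2 at 2 dpf (-0.75, adjusted p 0.0804) or at 6 dpf (-0.83, 0.0504), and by -1.79 ± 0.26 in GFP- cells (4.63e-05).

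In GFP+ cells the widest changes were those of inhbaa, by -1.57 ± 0.36 (limma adjusted p 0.00256), and bmp3, by -1.56 ± 0.27 (0.000208). All 3 arrays at 6 dpf lay below the 3 at 2 dpf for both genes. acvr2ba fell by 0.68 (SE 0.19, adjusted p 0.0117), a call that was lost without GFP+ 6 dpf replicate 3 (-0.58, adjusted p 0.0516) or GFP+ 2 dpf replicate 3 (-0.57, 0.0642), and when its probe sets were averaged (-0.16, adjusted p 0.252). smurf2 scored 0.69, 0.84 and 0.24 at 6 dpf, against 1.27, 1.41 and 1.1 at 2 dpf, a change of -0.67 ± 0.13 (adjusted p 0.000856). gdf6a changed by -0.46 ± 0.13 (adjusted p 0.0145), which ended without GFP+ 2 dpf replicate 2 (-0.35, 0.109), GFP+ 6 dpf replicate 1 (-0.40, 0.0658) or GFP+ 6 dpf replicate 2 (-0.39, 0.074). The 1 gene called higher at 6 dpf in the main fit was bmp7a, by 0.22 ± 0.07 (adjusted p 0.0238, 0.0725 after quantile normalization, and 0.0575 to 0.0743 without GFP+ 2 dpf replicate 1 or 2 or GFP+ 6 dpf replicate 2). Without GFP+ 6 dpf replicate 3, chrd (0.39, adjusted p 0.00808), gdf6b (0.28, 0.00417) and gdf7 (0.24, 0.0193) were called higher and smad6a (-0.66, 0.00469) lower. Array weights called these genes in the same directions, and further genes as well.

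In GFP- cells the 1 gene called higher at 6 dpf in the main fit was fstl5, by 1.84 ± 0.22 (limma adjusted p 6.82e-06). Its change in GFP+ cells, 0.62 ± 0.22, was not called (0.0532). The fstl5 change in GFP+ cells was called under quantile normalization (0.68, 0.0303), with array weights (0.74, 0.0109) and with only the arrays compared (0.0225). The inhbaa change in GFP- cells (0.77, adjusted p 0.156) was called with array weights (0.0342) and with only the arrays compared (0.0436). In GFP- cells those settings also called inhbb higher (0.51, 0.0213, and 0.47, 0.0309) and id4, smad7 and smad1 lower. In GFP- cells bmp5 changed by -0.76 ± 0.17 (0.0036), with -0.25, -0.21 and -0.27 at 6 dpf, against 0.43, 0.28 and 0.84 at 2 dpf. acvr1l, a type I Bmp receptor, scored 1.03, 1.36 and 1.11 at 6 dpf, against 1.56, 1.76 and 1.71 at 2 dpf, a change of -0.51 ± 0.12 (0.00445). smad5 scored 0.92, 1.03 and 1.11 at 6 dpf, against 1.40, 1.49 and 1.67 at 2 dpf, a change of -0.50 ± 0.16 (0.0375). The smad5 call ended without 5 single arrays and when its probe sets were averaged (-0.24, adjusted p 0.203). bmp4, the ligand that ventralizes the early embryo, changed by -0.32 ± 0.08 (0.00736, and 0.0501 without GFP- 2 dpf replicate 3).

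**Figure D5:**
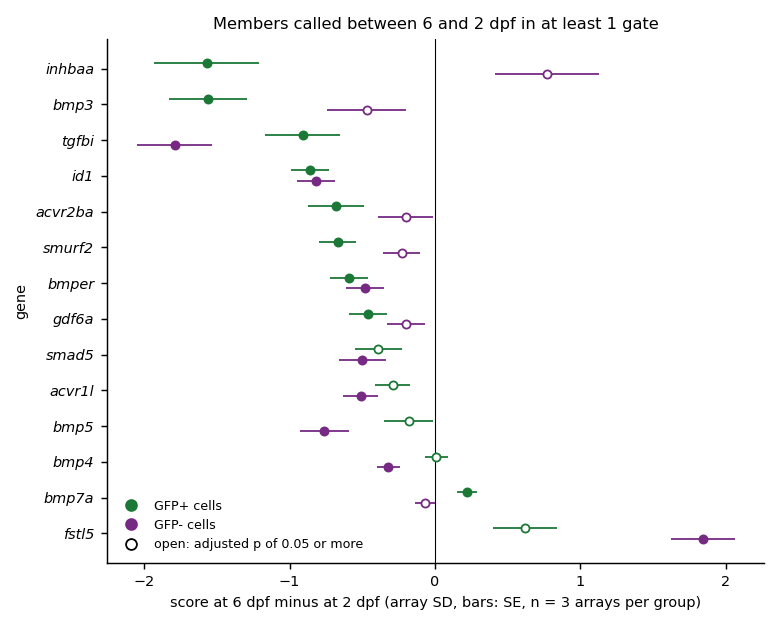
Score at 6 dpf minus score at 2 dpf (array SD, bars of 1 SE, 3 arrays per group) in GFP+ cells (green) and GFP- cells (purple) for the 14 genes called in at least 1 gate, with open points where the adjusted p was 0.05 or more. inhbaa is at -1.57 in GFP+ cells and at 0.77 in GFP- cells, and fstl5 at 0.62 in GFP+ cells and at 1.84 in GFP- cells.

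Whether the difference between the gates itself changed was tested as the gate difference at 6 dpf minus that at 2 dpf. It was called for 2 of the 46 genes, inhbaa and fstl5, both lower, beside 8.42% of all probe sets (3.54% higher, 4.89% lower). For inhbaa the contrast was -2.34 ± 0.50 (limma adjusted p 0.00551), and the call held without each of the 24 arrays in turn. Its second probe set gave -0.10 for this contrast (adjusted p 0.67), and with both averaged it was -1.22 (adjusted p 0.00884). For fstl5 it was -1.23 ± 0.31 (adjusted p 0.0176), and the call was lost without GFP- 2 dpf replicate 3 (-1.01, adjusted p 0.0587), GFP- 6 dpf replicate 1 (-1.13, 0.0531), GFP- 2 dpf replicate 2 (-1.14, 0.051) or GFP+ 2 dpf replicate 1 (-1.13, 0.0508). An F test over the 4 ages called the same 2 genes (adjusted p 0.0272 for inhbaa and 0.0261 for fstl5), beside 6.95% of all probe sets. bmp3 stood at -1.09 ± 0.38 (adjusted p 0.0837), and was called with the replicates as blocks (adjusted p 0.0441). Without GFP+ 6 dpf replicate 3, 6 genes were called in this contrast, the others being smad1 (0.69), chrd (0.52), bmp4 (0.41) and gdf6b (0.29).

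Genes of the pathway that the name rule does not reach were read from 2 further lists. The list of pathway genes outside the rule held 61 symbols, some of them synonyms, and 31 were measured. Of these, 8 were higher and 10 lower in GFP+ cells over the 4 ages, beside 37.7% and 20.7% of all probe sets. The median difference of the list was 0.00. The 3 widest in each direction were furina at 0.36 ± 0.06, a protease that processes ligand precursors, bambia at 0.36 ± 0.07, a decoy receptor, and foxh1 at 0.27 ± 0.09, a Smad2 partner, against zeb2a at -1.43 ± 0.14, a Smad-binding repressor, thbs1b at -1.27 ± 0.09, a thrombospondin, and znf423 at -1.14 ± 0.09, a Smad1 partner. Their limma adjusted p were at most 0.0173. Of 36 symbols of further target genes, again with synonyms, 23 were measured, of which 2 were higher and 12 lower. Their median was -0.27 beside 0.08 over all probe sets, and the 14 called are a share near the 58.4% of all probe sets. The 2 higher were xbp1, the secretory stress factor, at 0.42 ± 0.09, and bambia, which is on both lists. The widest of the lower were atoh8 at -0.81 ± 0.10, ccn2a at -0.62 ± 0.13, a matricellular growth factor, and tbx2b at -0.57 ± 0.14, with adjusted p of at most 0.00177. At 2, 3, 4 and 6 dpf, 7, 3, 1 and 4 of these targets were lower and 0, 1, 2 and 2 higher, beside 7.36%, 12.0%, 11.3% and 14.9% lower and 9.66%, 14.5%, 19.0% and 23.2% higher over all probe sets. The targets tagln and tp63, both lower, also stand in the marker lists of gut wall mesenchyme and epidermis, and the part of those cells was not tested.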

How the data were processed

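The deposited table gives, for each of 15617 probe sets on 24 arrays, a score that the authors made with RMA, a background correction and summary of Affymetrix probes, per the submitters' processing notes. Every array of this table had a median of 0 and an SD of 1, while the sources used here give neither the scaling step nor the log base. Probe sets were named from the platform annotation, which gave 1 symbol to 10795, several to 135 and none to 4572. The 115 control probe sets were left out. The 46 genes had 58 probe sets, and of the 9 genes with more than 1, the probe set with the highest mean over the 24 arrays was used.

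A model with 8 group means was fitted to 15502 probe sets without a signal filter in limma 3.58.1 (R 4.3.3), with two-sided moderated tests, 3.59 prior degrees of freedom, and Benjamini-Hochberg adjustment within each comparison over all probe sets at 0.05. The gates were compared at each age and as an even mean of the 4 ages, 6 dpf with 2 dpf in each gate, and the gate difference between 6 and 2 dpf and by an F test over the ages. Simulated scores with known differences in the same 8 groups were used to check the fit.

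The design text of the series pairs the gates, since it counts 2 samples to a replicate, 1 from each gate. Residuals of the 12 pairs correlated between -0.079 and 0.312 (mean 0.081), 4 of them over 0.1, and arrays with other numbers at a mean of -0.039. The model leaves the pair out, and a fit with each replicate as a block is given where it changed a call.

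The name rule, the role groups, the 2 lists of further pathway and target genes and the 8 marker lists were chosen with earlier results of these data known, so no count over them is independent evidence. Described array by array or by range are the 3 genes called with the largest difference in each direction within each role over the 4 ages, the 5 largest in each direction between 6 and 2 dpf in each gate, and those called for the change of the gate difference. Genes named beyond these are other genes of the rule, all of which may be named. Of the further lists, the 3 largest in each direction are given, and tagln and tp63 were added after their values were seen. Alternatives were quantile normalization, weighting of arrays, a robust prior with a trend, averaged probe sets per gene, and fits on only the arrays compared. Others were a mean score of at least 0, a difference of at least 1 array SD, the replicate block, and leaving out single arrays. GFP+ 6 dpf replicate 3 and GFP- 4 dpf replicate 3 were also left out together. The second correlated with its group at a mean of 0.939. Lower than this were also GFP- 4 dpf replicates 1 (0.934) and 2 (0.925), GFP+ 4 dpf replicate 2 (0.93) and GFP+ 6 dpf replicate 1 (0.938).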

Additional observations from a re-analysis of the deposited data

Results flagged for a closer look

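The gate difference of inhbaa, the activin beta A gene, changed between the ages by the test of that change itself. It was wider at 6 dpf than at 2 dpf by -2.34 ± 0.50 (limma adjusted p 0.00551). Between these ages GFP+ cells differed by -1.57, which was called, and GFP- cells by 0.77, which was not (adjusted p 0.156). The change in GFP- cells was called with array weights (adjusted p 0.0342) and with only the arrays compared (0.0436). Over all 24 fits that left out 1 array each, the call for the change of the gate difference was kept. The second, dim probe set of inhbaa gave -0.10 (adjusted p 0.67), and both averaged gave -1.22 (adjusted p 0.00884).

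The gate difference of fstl5, the follistatin-like gene, was also wider at 6 dpf than at 2 dpf, by -1.23 ± 0.31 (limma adjusted p 0.0176). Unlike inhbaa, fstl5 was higher at 6 dpf in both gates, by 0.62 in GFP+ cells, which was not called, and by 1.84 in GFP- cells, which was. The call was kept in 20 of the 24 fits without 1 array, and the highest adjusted p among them was 0.0587, without GFP- 2 dpf replicate 3.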

How the results depend on the processing

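Of the 86 calls made over the 8 directional comparisons, quantile normalization kept 71, array weights 83 and the robust prior with a trend 85. Averaged probe sets kept 80, but averaging changes the values of only the 9 genes with more than 1 probe set. Calls of the other genes could hardly change, and all 6 calls lost were of such genes with several probe sets, namely fsta, smad2, acvr2ba and smad5. The replicate block kept 74, among them the calls between 6 and 2 dpf within a gate, which it could hardly change. Leaving out GFP+ 6 dpf replicate 3 and GFP- 4 dpf replicate 3 together kept 80. Fits on only the arrays compared kept 49 of the 64 they could give, the fit on probe sets with a mean score of at least 0 kept all 60 it held, and fits without 1 array kept 79 to 84. None of the calls turned its direction under these settings. Several of them could not turn it, since they leave the differences themselves unchanged. These were the robust prior, the fits on only the arrays compared, the mean score of at least 0 and the replicate block. The same holds for a fit without an array outside the comparison, and for averaging in genes with 1 probe set. The count of genes called over the 4 ages, 22, was 14 with a mean score of at least 0, where 19 genes are left to test. With a minimum difference of 1 array SD the counts were 2, 4, 3 and 3 at 2, 3, 4 and 6 dpf, 5 over the ages, and 2 each for 6 against 2 dpf in GFP+ and in GFP- cells. Array weights, which gave GFP+ 6 dpf replicate 3 a low weight, called 19 genes at 3 dpf, 19 and 20 between 6 and 2 dpf in GFP+ and GFP- cells, 12 for the change of the gate difference and 12 by the F test. Only the arrays compared gave 11 at 6 dpf and 14 between the ages in GFP- cells, where a mean score of at least 0 gave 5. Without both GFP+ 6 dpf replicate 3 and GFP- 4 dpf replicate 3, 6 genes were called for the change of the gate difference. The causes were not tested. The shares of all probe sets called under the settings of this paragraph are not given here. A moved count is thus description only and shows nothing particular to these genes. Without 1 array the counts ran from 7 to 10, 6 to 10, 7 to 11 and 13 to 18 at the 4 ages, from 20 to 24 over the ages, from 6 to 12 and 5 to 11 between 6 and 2 dpf in GFP+ and GFP- cells, from 1 to 6 for the change of the gate difference, and from 0 to 2 by the F test. The replicate block gave 7, 9, 8 and 15 calls at 2, 3, 4 and 6 dpf, 19 over the ages, 9 and 8 between the ages and 3 for the change, beside 9, 9, 9, 18, 22, 9, 8 and 2 without it. Beyond the calls given with the results, the block ended those of bmp4 at 2 dpf (-0.24, adjusted p 0.0826) and bmp2k at 3 dpf (0.40, adjusted p 0.0547), and it changed no other call. Fits on only the arrays compared do not apply to the mean of the ages or the F test, nor does a minimum difference to the F test. Of the 21 genes under a score of 0 in all groups 5 were called higher over the 4 ages. Of all 7442 probe sets with a mean score under 0, 37.7% were called higher there. The number of arrays, 3 a group, limits the precision.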
